A study of Mus musculus with 9 samples.

Results

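The small nucleolar and Cajal body RNAs described here were 78 of the 22180 genes compared on the array. They were chosen by name, as genes whose symbol begins with Snord, Snora or Scarna followed by a digit, and each was read from the feature with the highest mean among those that carry its symbol alone. Of the 78, 47 were C/D box RNAs (Snord), 26 were H/ACA box RNAs (Snora) and 5 were Cajal body RNAs (Scarna). Together they occupied 81 features, and no 2 of the 78 shared the same set of 9 values.

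Small nucleolar RNAs are short noncoding RNAs that work in the nucleolus as parts of protein complexes. C/D box RNAs guide methylation of the ribose in ribosomal RNA, H/ACA box RNAs guide the conversion of uridine to pseudouridine, and Cajal body RNAs guide both kinds of change in the small nuclear RNAs of the spliceosome. Most vertebrate members are cut out of introns of other genes, whereas a few, among them Snord118, Snord13 and Scarna2, are known to be transcribed from promoters of their own. They are nuclear RNAs, whereas Pum2, a Pumilio-family protein, is known as a repressor of mRNA translation in the cytoplasm.

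The comparison behind the study is of RNA held by Pum2 with RNA held by a nonspecific antibody and with the RNA put in. The tissue was cortex of CD1 wild-type embryos, taken between days 12 and 13 of mouse gestation (E12/13), and all groups shared that genotype, strain, stage and tissue. The 3 Pum2 precipitates were made with a rabbit antibody to Pumilio2, the 3 IgG precipitates with normal rabbit IgG, which measures the background of the method, and the 3 input samples were total RNA with no antibody. The labels call the 3 of each group biological replicates and do not say how many embryos went into one. Each of the 9 RNAs was hybridised to a Mouse Gene 2.0 ST array, and all values below are log2 signals, in which a difference of 1 is a factor of 2.

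Across all genes the arrays of a group correlated with r of 0.994 to 0.996 and those of different groups with 0.977 to 0.989. The median SD between replicates was 0.10 in Pum2, 0.12 in IgG and 0.11 in input for all genes, and 0.16, 0.20 and 0.18 for the 78 RNAs (n = 3 arrays each). The 8 measured markers of cortical precursors and neurons lay between 8.47 and 10.78 in input, against a median gene level of 6.08 over all arrays. The 3 markers each of ganglionic eminence (4.82 to 6.75), microglia (5.90 to 6.81), meninges (6.15 to 7.49) and endothelium (7.84 to 8.51) reached lower, with endothelium touching the cortical range, and the embryonic globin Hbb-y stood at 10.17. The median difference of the cortical markers was 0.21 in Pum2 over IgG and 0.40 in Pum2 over input. Those of the 4 lists of other cell types ran from 0.03 (microglia) to 0.55 (endothelium) and from 0.29 (microglia) to 0.81 (meninges), and their part in the results was not tested. In bulk RNA fewer cells of a type and less RNA per cell cannot be told apart, and a value is relative to the other RNA on the array.

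By the RefSeq gene table of GRCm38.p6, 74 of the 78 lie inside at least 1 other gene and 58 inside a protein-coding gene. The 4 that lie inside none are Snord13, Snord118, Snord89 and Scarna2. Gene lengths ran from 48 to 248 bases, with a median of 68 for C/D box, 118.5 for H/ACA box and 71 for Cajal body RNAs. Signal from a small RNA inside an intron and signal from the unspliced transcript around it cannot be told apart on this array. Near-identical pairs such as Snora73a and Snora73b may share signal, so the values of single members of such pairs are less certain.

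Sequence was at hand where an annotated microRNA hairpin overlaps one of the 78, which happened in 2 cases. Snora34, the brightest of the 78 in input, spans chr15:98519717-98519834 inside Kansl2, and 73 of the 117 bases of the Mir1291 hairpin (chr15:98519762-98519878, minus strand) fall in that span. Snora19, inside Eif3a, spans chr19:60774330-60774385 and lies wholly within the 69-base Mir3084-2 hairpin (chr19:60774329-60774397, minus strand). The sequences are RefSeq's for GRCm38.p6, written 5′ to 3′ with the bases inside the small nucleolar RNA in capitals, and show how much of each is also annotated as a microRNA precursor.
Mir1291 hairpin: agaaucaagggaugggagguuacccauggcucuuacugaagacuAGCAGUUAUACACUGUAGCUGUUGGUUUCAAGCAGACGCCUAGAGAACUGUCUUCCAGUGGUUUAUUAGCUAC
Mir3084-2 hairpin: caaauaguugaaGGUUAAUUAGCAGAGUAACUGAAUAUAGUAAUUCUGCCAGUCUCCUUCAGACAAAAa

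Compared with the IgG precipitate, the background of the method, most of these RNAs read lower in the Pum2 precipitate and none could be called higher. Each value is relative to the other RNA on its array. In Pum2 over IgG, 58 of the 78 fell and 0 rose (limma, adjusted p under 0.05 over all genes). Over all genes, 11.4% fell and 19.4% rose. The median difference was -1.05, against 0.04 over all genes. A fall of at least 2-fold was called for 40 of them and one of at least 4-fold for 16, and the differences ran from -3.80 to 0.02. At an unadjusted p under 0.05 there were 60 lower and again 0 higher. For 61 of the 78 all 3 Pum2 arrays lay below all 3 IgG arrays, where the same held for 15.4% of all genes, and for none did all 3 lie above (25.9% of all genes). Thus the group shifted one way, but its members differed widely in how far.

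Among C/D box RNAs, 33 of 47 fell in Pum2 over IgG, with a median of -1.08. Snord61, which lies inside Rbmx, read 4.73, 4.98 and 4.97 in Pum2 precipitates, against 8.91, 8.61 and 8.57 in IgG precipitates and 7.53, 7.46 and 7.32 in input. The Pum2 arrays were the lowest and the IgG arrays the highest, with no overlap between any groups. It was 13.9-fold lower than in IgG (-3.80 ± 0.11, log2 difference ± SE, limma adjusted p = 9.88e-08). Snord104 read 6.94, 7.21 and 7.04 in Pum2 precipitates, 10.47, 10.31 and 10.41 in IgG precipitates and 10.89, 10.71 and 10.57 in input. Its Pum2 arrays again stood apart, here below 2 groups close to each other (-3.34 ± 0.10 against IgG, adjusted p = 9.88e-08).

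Snord13, an RNA with its own promoter that in human cells guides acetylation of 18S ribosomal RNA, read 5.48, 5.36 and 5.56 in Pum2 precipitates, 8.77, 9.09 and 7.99 in IgG precipitates and 8.31, 8.31 and 8.65 in input. It fell by 3.15 ± 0.23 against IgG (adjusted p = 1.07e-05), although the IgG arrays themselves spread over more than 1 unit. Snord47 read 5.73, 5.39 and 5.12 in Pum2 precipitates, 8.94, 8.48 and 7.96 in IgG precipitates and 7.63, 7.06 and 6.99 in input (-3.05 ± 0.26, adjusted p = 2.16e-05). Its 3 groups were fully separated, IgG highest. Snord99 (-2.66 ± 0.14) and Snord65 (-2.51 ± 0.20) were the other C/D box RNAs among the 10 largest falls. Snord118, known as U8 and needed for processing of the large-subunit ribosomal RNA, read 5.22, 5.41 and 5.79 in Pum2 precipitates, 6.80, 7.30 and 7.57 in IgG precipitates and 6.14, 5.83 and 6.13 in input. It fell by 1.75 ± 0.20 against IgG (adjusted p = 1.15e-04).

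**Figure D1:**
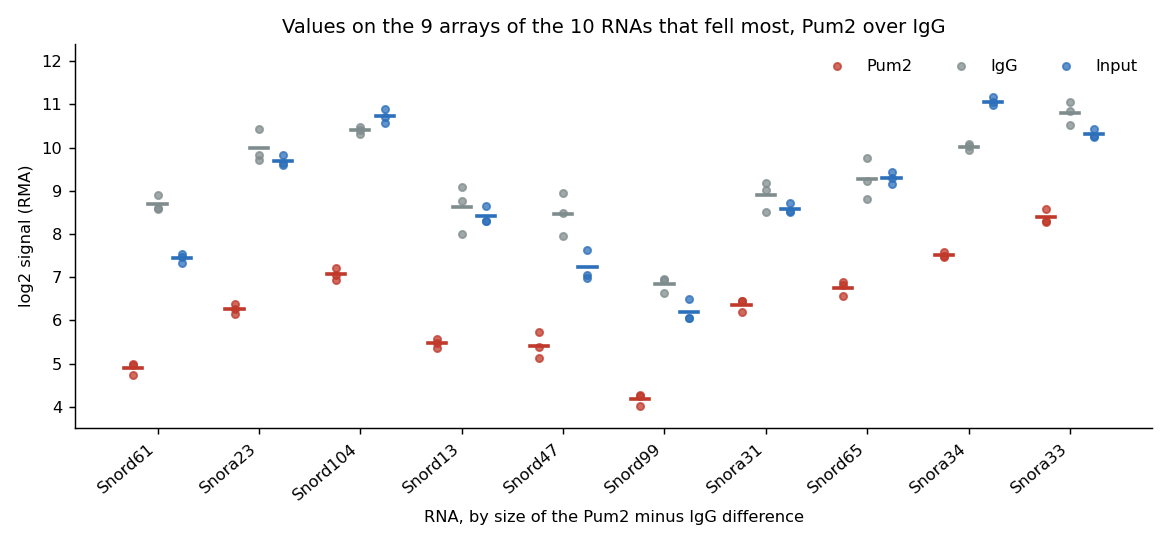
Log2 signal (vertical axis) on each array for the 10 RNAs with the largest fall in Pum2 over IgG, ordered by that fall. Points are single arrays and bars are means of the 3 arrays of a group (Pum2, IgG, input); all Pum2 points lie below the IgG and input points of the same RNA, and for Snord61 the IgG points, 8.57 to 8.91, lie above those of input.

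Among H/ACA box RNAs, 20 of 26 fell in Pum2 over IgG, with a median of -0.76. Snora23, inside Ipo7, read 6.38, 6.15 and 6.27 in Pum2 precipitates, 10.42, 9.72 and 9.83 in IgG precipitates and 9.82, 9.63 and 9.60 in input. It was 13.2-fold lower than in IgG (-3.72 ± 0.16, adjusted p = 7.67e-07), while IgG and input overlapped. Snora34 read 7.57, 7.50 and 7.46 in Pum2 precipitates, 10.08, 10.04 and 9.94 in IgG precipitates and 10.98, 11.17 and 11.05 in input. Its groups stood in 3 steps with Pum2 lowest and input highest, and it was 5.68-fold lower than in IgG (-2.51 ± 0.08, adjusted p = 9.88e-08). Snora31 (-2.55 ± 0.16) and Snora33 (-2.41 ± 0.14) completed the 10 largest falls. Snora73a and Snora73b, copies of the U17 RNA that acts in cleavage of the ribosomal RNA precursor, fell by 1.72 ± 0.12 and 1.95 ± 0.14. Snora19, whose sequence is given above, fell by less (-0.65 ± 0.10, adjusted p = 5.69e-04).

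All 5 Cajal body RNAs fell in Pum2 over IgG, with a median of -1.45. Scarna10, known in human cells as a guide for the U5 small nuclear RNA, read 5.54, 5.51 and 5.42 in Pum2 precipitates, 7.33, 7.11 and 7.16 in IgG precipitates and 7.31, 7.29 and 7.28 in input. The Pum2 arrays were lower by 1.71 ± 0.08 (adjusted p = 9.89e-07) and the arrays of IgG and input overlapped. Scarna17 fell by 1.79 ± 0.13, Scarna8 by 1.45 ± 0.22, Scarna6 by 0.84 ± 0.16 and Scarna2, which is transcribed on its own, by 0.74 ± 0.07. The falls were thus not limited to RNAs of the nucleolus.

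The RNAs that did not pass in Pum2 over IgG numbered 20, of which 14 were C/D box and 6 H/ACA box RNAs. Some were well above the median gene level. Snord71 read 8.11, 8.33 and 8.33 in Pum2 precipitates, 8.61, 8.34 and 8.25 in IgG precipitates and 8.33, 8.43 and 8.59 in input, so that all groups overlapped (-0.14 ± 0.11, adjusted p = 0.404). Snora21, inside the ribosomal protein gene Rpl23, differed from IgG by -0.14 ± 0.10 (adjusted p = 0.364). Snord11, with 6.28, 5.97 and 6.12 in Pum2 precipitates, 6.15, 6.15 and 6.01 in IgG precipitates and 6.39, 6.16 and 5.72 in input, was the single RNA with a positive difference (0.02 ± 0.15, adjusted p = 0.938). Snora35, which lies in the serotonin receptor gene Htr2c, stayed between 4.71 and 4.97 on all 9 arrays. It gave the same value, 4.7773, on replicates 2 and 3 of Pum2 and IgG and on Input replicate 3. Snord71 likewise gave 8.3282 on Pum2 replicates 2 and 3 and Input replicate 1. What such repeats mean for the lack of a difference was not tested.

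Compared with input, the total RNA of the tissue, most of the 78 again read lower in the Pum2 precipitate. In Pum2 over input 55 fell and 0 rose, where 13.1% of all genes fell and 21.6% rose, and at an unadjusted p under 0.05 there were 60 lower and 0 higher (limma). The median was -0.80, against 0.07 over all genes, and 36 fell by at least 2-fold. All 3 Pum2 arrays lay below all 3 input arrays for 57 of the 78 (16.8% of all genes) and above them for none (28.5% of all genes). This comparison uses the same Pum2 arrays as the one with IgG. By class, 30 of 47 C/D box, 20 of 26 H/ACA box and 5 of 5 Cajal body RNAs fell, with medians of -0.73, -1.11 and -1.15.

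The largest falls against input were those of Snord104 (-3.66 ± 0.10, 12.6-fold, adjusted p = 5.25e-08), Snora34 (-3.55 ± 0.08, 11.7-fold, adjusted p = 1.54e-08) and Snora23 (-3.42 ± 0.16). Snora28, inside Eif5, followed with 3.13, 3.36 and 2.97 in Pum2 precipitates, 4.91, 4.96 and 4.73 in IgG precipitates and 6.35, 5.96 and 6.18 in input. Its 3 groups were fully separated, with IgG between the others (-3.01 ± 0.13 against input, adjusted p = 1.91e-07). The next falls were those of Snord13 (-2.96 ± 0.23), Snora69 (-2.65 ± 0.12), Snord65 (-2.54 ± 0.20), Snord61 (-2.54 ± 0.11), Snord52 (-2.52 ± 0.12) and Snora73b (-2.31 ± 0.14). Snord90, at 2.64, 2.50 and 2.60 in Pum2 precipitates and 2.97, 2.99 and 2.94 in input, did not pass against input (-0.39 ± 0.20, adjusted p = 0.170), although its difference from IgG was -2.03; it passed with IgG left out of the fit (adjusted p = 0.00338) and without IgG replicate 1 (adjusted p = 0.0196). Snord118 missed the threshold against input (-0.56 ± 0.20, adjusted p = 0.0521) but passed under several alternatives. Among them were the replicate number as a block (adjusted p = 0.0205) and IgG left out of the fit (adjusted p = 0.0292). Centring the arrays on the brighter genes (adjusted p = 0.0282) and leaving out Pum2 replicate 3 (adjusted p = 0.027) were others. The call of Scarna8 against input (-0.73 ± 0.22, adjusted p = 0.0259) ended when Input replicate 1 (-0.65), Input replicate 3 (-0.73), Pum2 replicate 2 (-0.64) or Pum2 replicate 3 (-0.65) was left out.

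**Figure D2:**
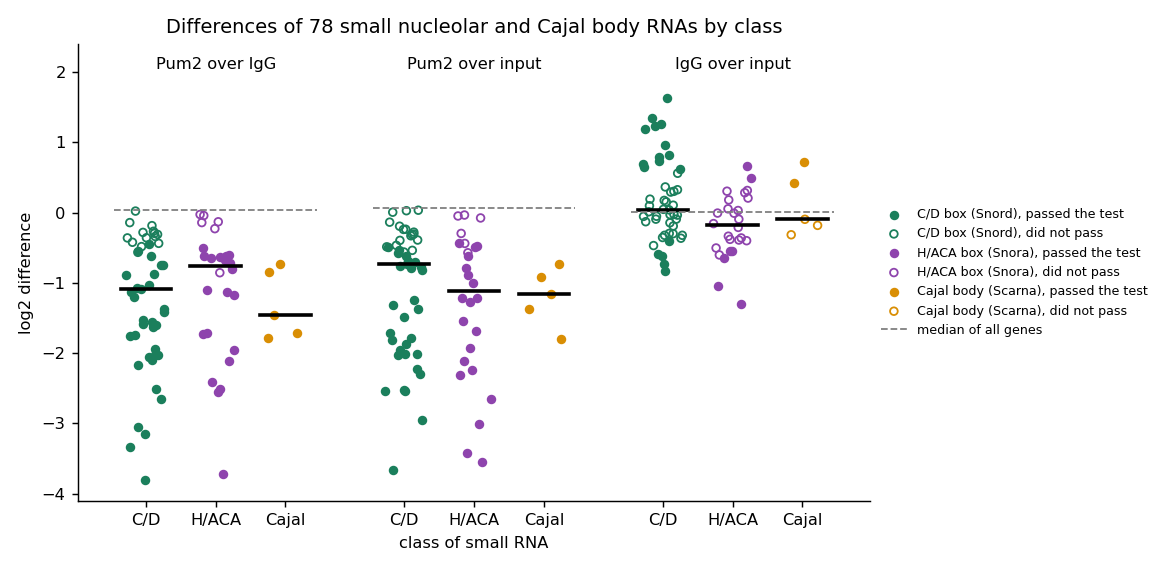
Log2 difference (vertical axis) of each of the 78 RNAs by class, for Pum2 against IgG, Pum2 against input and IgG against input. Filled points passed the test (adjusted p under 0.05), open points did not, black bars are class medians and dashed lines the median of all genes; both Pum2 comparisons lie almost wholly below 0, with C/D box medians of -1.08 and -0.73, and IgG over input straddles it.

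The differences of IgG over input use no Pum2 array, although all 9 arrays share the 1 estimate of the spread behind the calls. In this comparison the 78 RNAs split. Of them 16 rose (20.5%) and 10 fell (12.8%), against 8.25% and 9.72% of all genes, and the median was -0.03 (0.02 over all genes). The share that fell was thus near that of all genes. The 3 arrays of IgG lay all above those of input for 19 RNAs and all below for 15, against 15.9% and 16.2% of all genes. C/D box RNAs supplied most of those that rose, 12 higher (25.5%) and 5 lower (10.6%) of 47 with a median of 0.04. H/ACA box RNAs gave 2 higher (7.69%) and 5 lower (19.2%) of 26 with a median of -0.18, and 2 of the 5 Cajal body RNAs rose. A difference between the classes was not tested, since members of a class are not replicates. Without IgG replicate 1 the number that fell was 16, of which 9 were H/ACA box RNAs, and without Input replicate 3 the H/ACA box RNAs that fell numbered 8. Without Input replicate 1, Input replicate 2 or IgG replicate 3 the C/D box RNAs that fell were 3. H/ACA box RNAs that rose were 1 without IgG replicate 1, Input replicate 2 or Input replicate 3.

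The RNAs that read higher in nonspecific IgG than in input were led by Snord90, inside Rc3h2, with 5.15, 4.12 and 4.54 in IgG precipitates against 2.97, 2.99 and 2.94 in input. Its IgG arrays were all higher but spread widely, and the difference was 3.11-fold (1.64 ± 0.20, adjusted p = 5.21e-04). Snord35a, inside the ribosomal protein gene Rpl13a, read 7.02, 6.27 and 6.03 in IgG precipitates, against 5.20, 5.16 and 4.94 in input (1.34 ± 0.22, adjusted p = 0.00234). Snord61 rose by 1.26 ± 0.11, Snord47 by 1.24 ± 0.26, Snord118 by 1.19 ± 0.20, Snord87 by 0.97 ± 0.16, Snord89 by 0.82 ± 0.16, Snord22 by 0.79 ± 0.16 and Snord37 by 0.74 ± 0.17. All of these are C/D box RNAs, and each was lower in Pum2 than in IgG, a comparison that shares the IgG arrays. Scarna8 also rose (0.72 ± 0.22, adjusted p = 0.0481), but this call ended in 7 of the 9 fits with 1 array left out, Input replicate 2 (0.64) and IgG replicate 3 (0.45) among them. Scarna17 (0.42 ± 0.13, adjusted p = 0.0481) likewise lost its call in 7 of the 9, with values from 0.32 without IgG replicate 2 to 0.48 without IgG replicate 1.

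The RNAs lower in IgG than in input were led by Snora28 (-1.29 ± 0.13, adjusted p = 1.98e-04) and Snora34 (-1.05 ± 0.08, adjusted p = 8.64e-05). For both, all 3 IgG arrays lay below all 3 input arrays and all 3 Pum2 arrays lower still. Snord73b stood at -0.83 ± 0.24 (adjusted p = 0.0398), a call that ended in 7 of the 9 fits with 1 array left out, such as that without IgG replicate 2 (-0.57) or without Input replicate 1 (-0.68). Snord17 fell by 0.73 ± 0.10, Snora47 by 0.65 ± 0.10, Snord92 by 0.62 ± 0.08, Snora7a by 0.55 ± 0.13 and Snora69 by 0.55 ± 0.12. Snord49a (-0.59 ± 0.14) lost its call without Input replicate 2 (-0.49) or IgG replicate 3 (-0.57), Snora7a without Input replicate 2 (-0.45) and Snord35b (-0.41 ± 0.10) without Input replicate 1 (-0.37), Input replicate 2 (-0.36) or IgG replicate 2 (-0.33).

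The size of the fall went with the level in input. The 78 were cut into 3 classes of 26 by their mean on the input arrays, and Pum2 over IgG was read in each. Its differences use none of those arrays, but its calls do, since all 9 arrays share 1 estimate of the spread. In the low class, 2.74 to 5.80 in input, 13 fell and the median was -0.55. In the middle class, 6.03 to 7.29, 21 fell and the median was -1.15. In the high class, 7.33 to 11.07, 24 fell and the median was -1.83. Other genes in the same 3 input ranges had medians of 0.02, 0.11 and 0.12 in Pum2 over IgG, and 3.87%, 12% and 19.9% of them fell. Calls in general were thus more frequent at higher levels, but the median did not move down. A signal near the bottom of the scale has less room to fall. The lowest difference among these other genes was -2.42 in the low range, -2.72 in the middle and -4.35 in the high range. The part of this limit in the trend among the 78 was not tested. Across the 78 RNAs, which were measured on the same 9 arrays, the rank correlation of the difference with the input level was -0.47, against 0.15 over the other 22102 genes. With gene length it was -0.07.

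The order of classes differed between levels and comparisons. In the low class the Pum2 over IgG median was -0.54 for C/D box and -0.55 for H/ACA box RNAs, in the middle class -1.37 and -0.95, and in the high class -1.63 and -2.03. Of the 41 RNAs at or above the median gene level, 36 fell with a median of -1.55, beside 18% of all genes at or above it. Of the 37 below it 22 fell with a median of -0.65, beside 11.4% of genes at any level. Against input 36 of the 41 and 19 of the 37 fell, with medians of -1.38 and -0.57. Beside them fell 21.9% of all genes at or above that level and 13.1% at any level. The level is a mean over all 9 arrays, so this split is not independent of the differences. Snord118 (6.03 in input, 7.22 in IgG) and Snord87 (6.07 and 7.03) passed it with input below it. On the Pum2 arrays 56 to 57 of the 78 lay below the median of all genes on their array, against 32 to 33 on the IgG arrays and 25 to 32 on the input arrays.

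**Figure D3:**
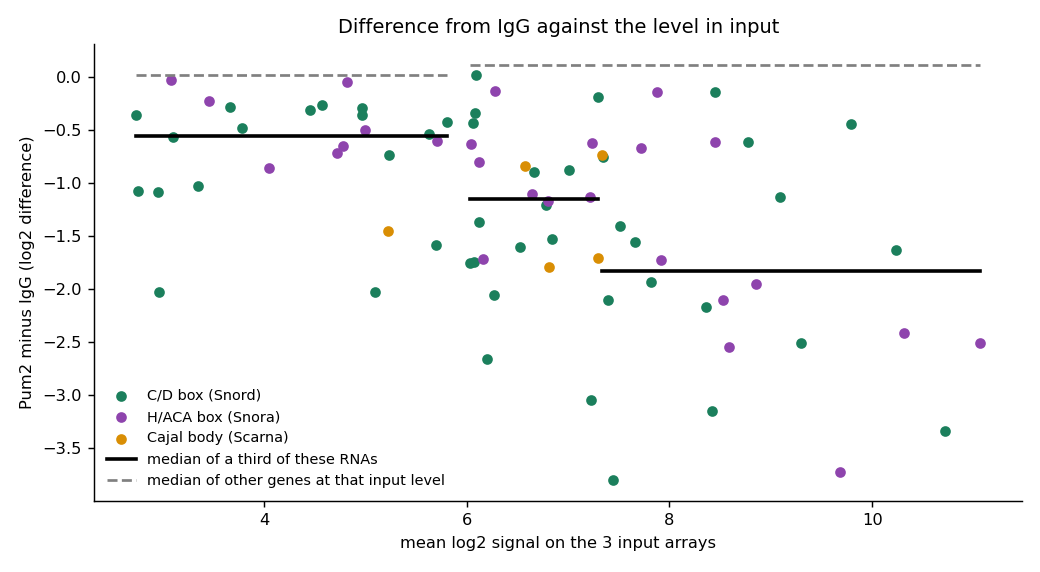
Pum2 minus IgG (log2 difference, vertical axis) of each of the 78 RNAs against its mean log2 signal on the 3 input arrays. Black bars are the medians of the 3 input classes (-0.55, -1.15 and -1.83) and dashed bars those of other genes in the same input ranges (0.02, 0.11 and 0.12).

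Small nucleolar RNAs could be set beside the gene that contains them in 58 cases, those with exactly 1 containing gene that has a feature of its own. These 58 lie in 44 genes, found by position without regard to strand. In Pum2 over IgG the small RNAs had a median of -1.05 and their containing genes one of -0.29, and the small RNA lay below its containing gene in 46 of 58 pairs. In protein-coding genes this was so in 40 of 45 pairs, with medians of -0.88 and -0.19. In genes of long noncoding RNAs it was so in 6 of 13, with medians of -1.53 and -1.40. Among the 44 small RNAs of these pairs that fell, the containing gene fell in 26 cases, did not pass in 11 and rose in 7. Genes that contain several of these RNAs enter that count more than once. Counted once each, 22 of the 44 containing genes fell and 8 rose. Over all genes 11.4% fell and 19.4% rose (18% and 34.1% at or above the median gene level). The median of the small RNA minus its containing gene was -0.74. In Pum2 over input the small RNA lay below in 39 of 58 pairs, with a median of -0.29, and in 3 of the 13 pairs with long noncoding RNA genes, with a median of 0.35. In IgG over input it lay below in 18 of 58 pairs, with a median of 0.20.

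Some pairs went opposite ways in Pum2 over IgG. Snora23 fell by 3.72 while the mRNA of its containing gene Ipo7, a nuclear import factor, rose by 0.39 ± 0.10 (adjusted p = 0.0156). Scarna10 fell by 1.71 while that of Ncapd2, a condensin subunit, rose by 0.30 ± 0.09 (adjusted p = 0.0222). Snord69 fell by 0.88 inside Gnl3, a nucleolar GTPase gene whose mRNA rose by 0.87 ± 0.09 (adjusted p = 8.4e-05). Snora34 fell by 2.51 inside Kansl2, which did not pass (0.21, adjusted p = 0.0570). Other pairs were alike, as with Snora73a and Snora73b against their host transcript Snhg3 (-1.72, -1.95 and -2.07), and Snord52 against 1110038B12Rik (-2.17 and -2.31).

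Small RNAs of the same host transcript could differ from each other. The noncoding transcript Snhg12 contains Snora16a, Snora44, Snora61 and Snord99 and itself fell by 0.83 ± 0.10 in Pum2 over IgG. Snord99 read 4.25, 4.03 and 4.27 in Pum2 precipitates, 6.94, 6.62 and 6.96 in IgG precipitates and 6.49, 6.04 and 6.06 in input. Snora61 read 6.23, 6.21 and 6.18 in Pum2 precipitates, 6.46, 6.23 and 6.32 in IgG precipitates and 6.22, 6.17 and 6.46 in input. The first was separated from IgG by more than 2 units (-2.66 ± 0.14), whereas the second did not pass (-0.13 ± 0.09, adjusted p = 0.353), and Snora44 and Snora16a lay between (-0.67 ± 0.16 and -0.60 ± 0.18). In 2410006H16Rik, Snord65 fell by 2.51 ± 0.20, Snord49b by 1.41 ± 0.13 and Snord49a by 0.89 ± 0.14. In Nop58, the gene of a core protein of C/D box particles, Snord70 fell by 1.08 ± 0.14 and Snord11 did not pass.

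**Figure D4:**
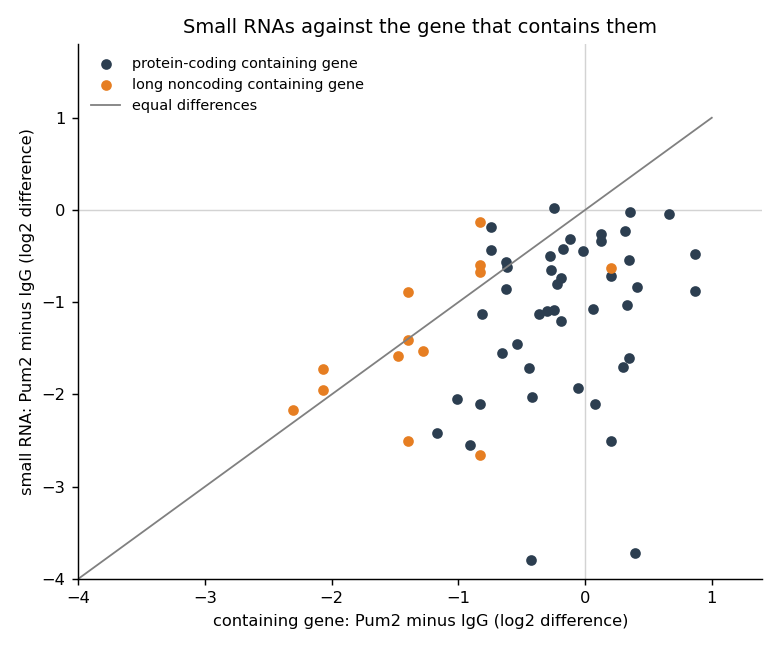
Pum2 minus IgG (log2 difference) of each small RNA (vertical axis) against that of its single containing gene (horizontal axis), 58 pairs, with protein-coding and long noncoding containing genes in different colours. Points below the line of equal differences, 46 of 58, are small RNAs that lay further down than the gene around them.

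The mRNAs of the proteins that work with these RNAs moved in both directions. Most of them lie at or above the median gene level, where 18% of all genes fell and 34.1% rose in Pum2 over IgG. Of 8 measured genes of core particle proteins, 2 fell and 3 rose in Pum2 over IgG, with a median of -0.01. Rrp9, a protein of the U3 particle, rose by 0.54 ± 0.07, Gar1 and Dkc1 of H/ACA particles rose by 0.63 ± 0.12 and 0.41 ± 0.09 (Dkc1 being the pseudouridine synthase), and Snu13 of C/D particles fell by 0.36 ± 0.08. Of 14 genes of assembly, cap and Cajal body factors 0 fell, also at an unadjusted p under 0.05, and 5 rose (median 0.29), among them the helicase genes Ruvbl1 (0.80 ± 0.16) and Ruvbl2 (0.53 ± 0.09), Tcof1 (0.51 ± 0.10), a nucleolar factor of ribosome synthesis, and Wrap53, which carries RNAs to Cajal bodies (0.47 ± 0.08). Of 7 genes of processing and decay factors 0 fell, again also unadjusted, and 3 rose (median 0.15), namely Dbr1, the enzyme that opens intron lariats (0.98 ± 0.15), Mtrex, an exosome helicase (0.75 ± 0.16), and the nuclear exosome subunit gene Exosc10 (0.51 ± 0.11). The shares of the assembly and processing lists that rose, 35.7% and 42.9%, were near or little above that of all genes at this level. In Pum2 over input, where 21.9% of genes at this level fell and 37% rose, 4 core protein genes fell and 1 rose (median -0.26). Those that fell were Nop10 (-1.07 ± 0.07) and Nhp2 (-0.71 ± 0.08) of H/ACA particles and Snu13 (-0.78 ± 0.08) and Nop58 (-0.37 ± 0.10) of C/D particles, so that Snu13 and Nop10 (-0.23 ± 0.07 against IgG) fell in both comparisons, which share the Pum2 arrays. The assembly list gave 2 lower and 6 higher against input and the processing list 0 lower, also at an unadjusted p under 0.05, and 4 higher.

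Other lists of noncoding RNAs held genes that fell in Pum2 over IgG beside genes that did not pass. The counts below in Pum2 over IgG stand beside 11.4% lower and 19.4% higher over all genes, and 18% and 34.1% at or above the median gene level. Of 15 host transcripts of small nucleolar RNAs, 10 fell and 1 rose in Pum2 over IgG (median -0.95), with Snhg6 as the one that rose (0.49 ± 0.08), Snhg3 at -2.07 ± 0.10, Snhg10 at -1.82 ± 0.09, Snhg1 at -1.47 ± 0.08 and Snhg18 at -1.28 ± 0.08. The list of small structural RNAs holds Rnu3a, of the U3 particle and so itself a small nucleolar RNA, which did not pass (-0.39 ± 0.19). Of the 10 RNAs on that list, 7 fell and 0 rose (median -0.71), and 0 were higher at an unadjusted p under 0.05. Among them Rpph1 of RNase P fell by 4.38 ± 0.16, the Y RNA Rny1 by 2.59 ± 0.25, the transcription regulator Rn7sk by 1.04 ± 0.11 and the minor spliceosome RNA Rnu12 by 0.81 ± 0.07. Of 483 microRNA genes 118 fell (24.4%), 4 rose and 361 did not pass (median -0.14), and of the 73 at or above the median gene level 39 fell (53.4%) and 0 rose (1 at an unadjusted p under 0.05), with a median of -0.43 beside -1.55 for the 41 small nucleolar and Cajal body RNAs at that level. In IgG over input, 9.72% of all genes were lower and 8.25% higher (17.8% and 13.8% at or above the median gene level). There the structural RNAs gave 5 lower and 0 higher (1 at an unadjusted p under 0.05, median -0.63). The host transcripts gave 5 lower and 1 higher (median -0.31), and the 78 RNAs 10 lower (12.8%) and 16 higher (20.5%).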

How the data were processed

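Per the submitters' processing notes, the authors made the deposited log2 signals with RMA in Affymetrix Expression Console. Tool versions and the genome build: not given in the sources used here. The table holds 41345 features on 9 arrays, of which 23521 carry 1 gene symbol, 1814 several and 16010 none here. Names came from the platform annotation given with the series; Entrez identifiers of all 78 RNAs matched RefSeq (GRCm38.p6). No further normalization was applied. The number of arrays limits the precision.

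All 22180 genes were fitted with limma 3.58.1 in R 4.3.3, 1 fit of 9 arrays in 3 groups without a replicate block, with Benjamini-Hochberg adjustment over all genes and calls at an adjusted p under 0.05 with no fold threshold. A value after ± is the standard error. On simulated arrays of 22180 genes, 100 genes were lowered by 1 in Pum2 and 100 by 0.5, with all others unchanged and noise drawn independently. In Pum2 over IgG, 91% of the first and 49% of the second were called, beside 14 false calls. Far more genes were called in the real arrays, so the shares recovered there can differ.

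Replicate numbers come from the titles. Deviations from group means correlated across brighter genes at 0.22 to 0.36 between same-numbered Pum2 and input arrays, so that these numbers met the rule for pairing, and at -0.04 to 0.29 between Pum2 and IgG and 0.02 to 0.26 between IgG and input, which did not meet it. All values reported come from the fit without a block, except where an alternative is named.

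The RNAs and gene lists were chosen with earlier results of these data known. Named were, for each comparison, up to 10 called RNAs in each direction with the largest difference and no overlap of arrays, all Scarna RNAs, RNAs of known role, and up to 4 genes of each list by moderated t. Other named RNAs (those that did not pass, those of shared hosts, Snora19) and the pairs with containing genes were singled out after their values were seen. Alternatives are in the closing section.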

Additional observations from a re-analysis of the deposited data

How the results depend on the processing

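Of the 34 RNAs named by rule, none changed its call or direction in Pum2 over IgG under any of the alternatives run, 4 changed call under at least 1 alternative in Pum2 over input and 13 in IgG over input, and none reversed in any comparison. Their choice rested partly on large called differences in these same data, which favours stable calls. Over all 78 the counts varied, as given below. With the replicate number as a block, 58 of the 78 were lower and 0 higher in Pum2 over IgG, 57 and 0 in Pum2 over input, and 13 and 15 in IgG over input; beside Snord118 against input, named above, Scarna8 in IgG over input lost its call (adjusted p = 0.0521) and Snora73a (0.0357) and Snord52 (0.0336) gained one. A fit restricted to genes no dimmer than the median gene, which leaves 41 of the 78, gave 36 lower with a median of -1.55 in Pum2 over IgG (19 C/D box, median -1.59; 13 H/ACA box, median -1.17), a median of -1.38 in Pum2 over input (C/D box 19 lower, median -1.35; H/ACA box median -1.68), and 9 higher in IgG over input (C/D box 3 lower and 6 higher; H/ACA box 8 lower, median -0.36). That restriction goes by the mean over all 9 arrays, those compared included. Centring the arrays on the brighter genes gave a median of -0.87 in Pum2 over input. In IgG over input, H/ACA box RNAs gave 1 higher with only the 2 groups in the fit or with all rows of the table fitted, and 8 lower with an intensity trend and robust prior. With 1 array left out, lower calls numbered 53 to 58 in Pum2 over IgG, 51 to 57 in Pum2 over input and 7 to 16 in IgG over input (C/D box 3 to 7, H/ACA box 4 to 9), higher calls in IgG over input 13 to 16 (H/ACA box 1 to 2), and the medians of all 78 ran from -1.12 to -0.96, -0.92 to -0.75 and -0.07 to 0.04. Values below the median level carry no detection call in this table, which limits what the low class can show.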

Other observations

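Beside the 78 RNAs, 46 features carry a symbol of this kind together with another gene's symbol, and these were left out of the comparisons. Because 16 features naming Snord116l1 and Snord116l2 with Gm26504 hold identical values and count as 1, they give 31 distinct measurements. In a fit of all 41345 features, 24 of the 31 were lower and 0 higher in Pum2 over IgG (limma, 0 higher also at an unadjusted p under 0.05), and 23 and 0 in Pum2 over input (0 higher also unadjusted). Over all features of that fit, 15.7% were lower and 11.8% higher in Pum2 over IgG, 16% and 12.9% in Pum2 over input and 7.14% and 5.98% in IgG over input. In IgG over input 6 were lower and 0 higher, with 3 higher at an unadjusted p under 0.05.

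The features named here were chosen after their values were seen. The Snord116 measurement, from an imprinted cluster known for its loss in Prader-Willi syndrome, averaged 6.64 in Pum2, 8.71 in IgG and 8.25 in input, a difference of -2.07 ± 0.19 from IgG (adjusted p = 1.18e-04). Snord2 with Eif4a2 stood at -3.33 ± 0.18, Snord34 with Rpl13a at -2.76 ± 0.16 and Snord14e with Hspa8 at -2.49 ± 0.27, while Rabggtb with Snord45c did not pass (-0.04 ± 0.07, adjusted p = 0.775). Of the 3 RNAs with a second feature, that of Snora19 repeats the values of the first. The second features of Snora33 and Scarna17 gave -2.53 ± 0.18 and -1.93 ± 0.15 in Pum2 over IgG, beside -2.41 and -1.79 for the features used above.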
